A study of Mus musculus with 4 samples.

Results

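The complement and coagulation factors are plasma proteins that the liver makes and releases into the blood. They were followed here as 36 mouse genes, named by symbol, all of which held counts, among 32285 genes in the matrices (26137 with a count in the nuclei kept). The data are single-nucleus RNA sequencing of frozen liver from male wild-type C57BL6/J mice, an inbred laboratory strain, at 2 months of age (young, 2 libraries) and 30 months (aged, 2 libraries). No group carried an allele or a treatment. Nothing in the labels ties each replicate to a mouse of its own, so p-values measure only the spread between these libraries, which may be technical.

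Complement is a cascade in blood that marks and lyses microbes. Starter proteases and mannose-binding lectins recognise a surface, C2, C4, factor B and C3 form the convertases that amplify the signal, and C5 to C9 assemble into a membrane pore. Coagulation runs in parallel as a chain of proteases, most of them made by hepatocytes and several needing vitamin K, that ends in thrombin and fibrin, with serpins holding thrombin back and plasmin dissolving the clot. Factor VIII is the known exception to hepatocyte origin, since sinusoidal endothelial cells make most of it. Hepatocytes also differ along the liver lobule, from the portal vein, where blood enters, to the central vein, where it leaves.

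The deposited matrices held between 2666 and 14718 barcodes and between 11799751 and 54777101 unique molecular identifiers (UMIs, each marking 1 captured RNA molecule) per library. After filtering, 1935, 12219, 7216 and 11892 nuclei remained in young replicates 1 and 2 and aged replicates 1 and 2, and values for 4 libraries are given in this order below. Hepatocyte-like nuclei numbered 24086, and none of the 10 hepatocyte markers was at 0 in them (summed level 18124 to 21996 CPM, counts scaled to the same total in every library). Detection alone does not set these nuclei apart, since 9 or 10 of the markers were detected in every cluster of nuclei, those of other classes included. Endothelial-like nuclei numbered 2320, stellate/fibroblast-like nuclei 3436 and macrophage-like nuclei 922. Aged replicate 1 stood apart from the other 3 libraries: 8 male-biased liver genes summed to 747 CPM in its hepatocyte-like nuclei against 11345, 8251 and 4045 CPM, and 8 female-biased genes to 1174 CPM against 2.39, 3.505 and 4.75 CPM. The largest number of barcode sequences that 2 libraries shared was 67.

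In hepatocyte-like nuclei the 36 genes together made up 1.03%, 1.07%, 0.937% and 1.01% of the UMIs. All 36 passed the filter on low counts in every fit below. When each nucleus was thinned to 1000 UMIs, leaving out 67, 5086, 1547 and 1137 shallower nuclei, a hepatocyte-like nucleus held on average 7.67, 8.10, 7.40 and 7.71 of the 36 genes. Without thinning, these means were 17.6, 8.53, 13.7 and 16.0.

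Levels between genes were compared per kilobase of annotated exon, as the mean over 4 libraries ± SD. Kng1, which encodes kininogen, the source of bradykinin, was highest at 256 ± 105 CPM per kilobase. The pore subunits followed, C8a at 222 ± 86.6, C6 at 213 ± 127 and C9 at 176 ± 92.6, and these first 4 genes did not differ beyond their spread. Plg (plasminogen) stood at 151 ± 41.0, C3 (the central convertase substrate) at 141 ± 35.3 and Proc (protein C) at 139 ± 20.9. At the lower end were C1ra (a starter protease of the classical pathway) at 22.5 ± 10.2 and Masp1 (a lectin pathway protease) at 19.98 ± 4.79. F8 was lowest at 2.94 ± 0.667 CPM per kilobase, apart from every other gene by more than the spread. Nuclear RNA is partly unspliced, and per kilobase of gene span Kng1 (34.4) and F8 (0.139) kept the ends of the order, while C6, with long introns, stood at 8.62 and C9 at 8.43.

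Many of the 36 genes differed along the lobule, most of them higher near the portal vein. Nuclei of each library were ranked by a zone score, the level of pericentral landmark genes less that of periportal ones, none among the 36, and divided into 3 equal parts, of which the outer ones were compared with library as a block. Of the 36 genes, 20 were higher in the periportal part and 4 in the pericentral part at an adjusted p under 0.05 (edgeR's quasi-likelihood test, Benjamini-Hochberg over 13735 genes). Among all genes tested, 10.7% were called higher periportally and 11% pericentrally. The median log2 difference (pericentral minus periportal) was -0.31 for the 36 genes and -0.01 for all genes. Fewer nuclei holding a transcript and less of it per nucleus cannot be told apart in sums per library. Each of the 24 genes lay on the same side in all 4 libraries, 20 periportal against 19.5% of all genes and 4 pericentral against 17.9%. By family, 10 of 17 complement genes and 10 of 19 coagulation and fibrinolysis genes were higher periportally, and 2 of each were higher pericentrally.

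**Figure D1:**
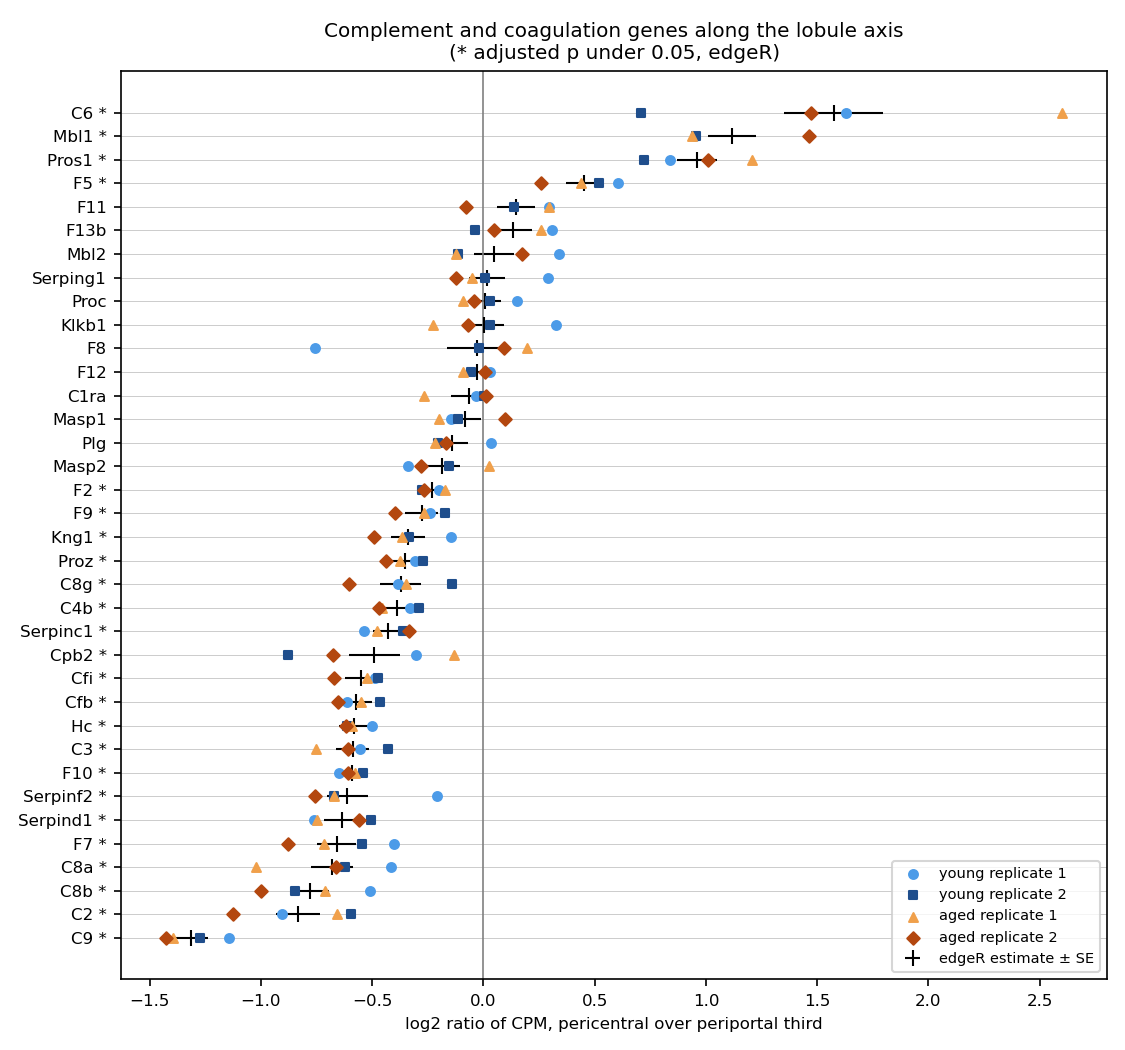
Log2 ratio of CPM in the pericentral over the periportal part of hepatocyte-like nuclei (horizontal axis) for each of the 36 genes (rows), with 1 point per library and the edgeR estimate ± SE as a black bar. C6, Mbl1, Pros1 and F5 lie right of 0 in all 4 libraries, and the 20 other genes with an asterisk lie left of it.

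The outer parts also differed in depth and in mitochondrial share. Median UMIs per nucleus were 3083 periportally and 3817 pericentrally in young replicate 1, 933 and 958 in young replicate 2, 2738 and 2324 in aged replicate 1, and 3430 and 2932 in aged replicate 2. The periportal part was thus the shallower one in the young libraries and the deeper one in the aged libraries. The part of depth in the differences was not tested. The median mitochondrial share was higher periportally in each library (0.384% against 0.223%, 0.647% against 0.508%, 0.671% against 0.635%, 0.370% against 0.312%). Without the 3 hepatocyte-like clusters led by mitochondrial transcripts, an alternative chosen after seeing the data, 16 genes were called periportal and 4 pericentral. Among all 13103 genes tested there, 1235 were called periportal and 1426 pericentral. This setting kept 1368 of 1371, 7997 of 8937, 3151 of 5501 and 7601 of 8277 hepatocyte-like nuclei by library. With these clusters left out, C4b went from -0.39 to -0.25 and was still called.

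Promoter sequences are shown for the 3 genes with the largest pericentral difference (C6, Mbl1 and Pros1) and the 3 with the largest periportal difference among the 27 genes that RefSeq's promoter table held (C9, C8b and C8a), so that genes of opposite pattern can be compared in sequence. Each runs 5′ to 3′ from 250 bases before the RefSeq start (GRCm38.p6) and stops before any transcribed base of the GENCODE or RefSeq model. Capitals mark a match on either strand to GTTAAT (an HNF1 half-site), TTGCNNAA (a C/EBP site), CTTTGA (a TCF/LEF core) or CAAAGTCCA (an HNF4 core).
C6, chr15:4726960-4727174, plus strand: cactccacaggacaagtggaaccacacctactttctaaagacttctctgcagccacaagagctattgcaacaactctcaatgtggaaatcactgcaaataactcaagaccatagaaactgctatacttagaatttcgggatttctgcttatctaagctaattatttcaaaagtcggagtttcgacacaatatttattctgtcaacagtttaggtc
Mbl1, chr14:41151206-41151455, plus strand: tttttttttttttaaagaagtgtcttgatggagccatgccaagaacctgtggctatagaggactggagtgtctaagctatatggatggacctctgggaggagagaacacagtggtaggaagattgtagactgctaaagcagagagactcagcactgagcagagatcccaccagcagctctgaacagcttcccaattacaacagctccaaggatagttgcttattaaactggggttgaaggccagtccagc
Pros1, chr16:62854057-62854306, plus strand: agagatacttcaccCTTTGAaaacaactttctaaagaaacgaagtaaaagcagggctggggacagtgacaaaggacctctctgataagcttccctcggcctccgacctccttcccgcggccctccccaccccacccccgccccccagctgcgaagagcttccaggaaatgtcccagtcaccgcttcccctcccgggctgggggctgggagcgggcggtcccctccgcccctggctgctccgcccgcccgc
C9, chr15:6445096-6445326, plus strand: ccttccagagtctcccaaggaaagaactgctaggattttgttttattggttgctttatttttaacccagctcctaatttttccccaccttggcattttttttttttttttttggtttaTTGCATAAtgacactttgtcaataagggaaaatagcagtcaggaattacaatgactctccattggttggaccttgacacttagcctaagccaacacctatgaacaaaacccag
C8b, chr4:104766067-104766316, plus strand: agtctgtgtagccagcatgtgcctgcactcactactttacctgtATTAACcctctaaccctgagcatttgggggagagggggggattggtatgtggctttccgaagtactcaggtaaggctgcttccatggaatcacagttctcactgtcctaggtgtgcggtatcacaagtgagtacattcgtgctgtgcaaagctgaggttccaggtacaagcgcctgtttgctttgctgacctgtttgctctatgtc
C8a, chr4:104876399-104876648, minus strand: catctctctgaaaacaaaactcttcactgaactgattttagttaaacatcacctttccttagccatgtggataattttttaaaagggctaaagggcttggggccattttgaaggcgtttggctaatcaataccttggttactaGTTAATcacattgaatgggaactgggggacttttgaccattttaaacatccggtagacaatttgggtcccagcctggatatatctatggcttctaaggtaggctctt

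Over the 250 bases before the start, GTTAAT was found in 6 of the 27 promoters (22.2%; Hc, C8a, C8b, C1ra, F13b and Proz) and in 6.44% of 32817 promoters in the table. TTGCNNAA was found in 5 (18.5%; C3, C9, F9, F11 and Klkb1) against 9.57%, and CTTTGA in 2 (7.41%; Pros1 and Serpind1) against 13.8%. CAAAGTCCA was in none of the 27 and in 0.384% of all. These are matches of letters and not measured sites. C8a and C8b are neighbours on chromosome 4 within 110 kilobases, lie on opposite strands with their ends facing each other, and so have separate promoters, each with 1 GTTAAT match.

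Most terminal components, which build the membrane pore, were higher near the portal vein. C9, the subunit that forms the ring of the pore (chromosome 15, 6445327 to 6498751), had the largest periportal difference of the 36. It counted 1066 CPM periportally and 483 pericentrally in young replicate 1, 505 and 208 in young replicate 2, 300.1 and 114 in aged replicate 1, and 503 and 187 in aged replicate 2. The log2 difference was -1.31 ± 0.08 (SE), with an adjusted p of 1.57e-06 in edgeR. The level differed between libraries in both parts, and the log2 ratio lay between -1.43 and -1.14 in each of them. Over 5 equal bins of the score, C9 went from 1025, 557, 283 and 500.1 CPM in the most periportal bin to 252, 148, 53.2 and 111 CPM in the most pericentral one.

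C8a and C8b encode the alpha and beta subunits of C8, which inserts into the membrane. C8b had log2 ratios of -0.51, -0.85, -0.71 and -1.001 in the 4 libraries, with an estimate of -0.78 ± 0.09 (adjusted p = 0.000135, edgeR). C8a had -0.41, -0.62, -1.02 and -0.66, with -0.68 ± 0.10 (adjusted p = 0.000501, edgeR). The gamma subunit gene C8g, on chromosome 2, differed less, with -0.38, -0.14, -0.35 and -0.60 and an estimate of -0.37 ± 0.09 (adjusted p = 0.0142, edgeR), so all 3 subunits were higher on the same side. Hc, the mouse gene of C5, had -0.50, -0.61, -0.59 and -0.62, the narrowest range of these, with -0.58 ± 0.07 (adjusted p = 0.000149, edgeR). C8g lost its call without the clusters led by mitochondrial transcripts, with a log2 difference of -0.16.

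C6 was the exception among the pore genes, and the most pericentral of the 36. C6 binds C5b as the pore starts to form, and its gene lies on chromosome 15 (4727175 to 4814967), within 1772 kilobases of C9. It counted 651 CPM periportally and 2014 pericentrally in young replicate 1, 558 and 911 in young replicate 2, 47.2 and 289 in aged replicate 1, and 534 and 1484 in aged replicate 2. The pericentral part was the higher one in each library, by log2 ratios of 1.63, 0.71, 2.60 and 1.47. The estimate was 1.57 ± 0.22, with an adjusted p of 0.000576 in edgeR. In the most pericentral bin C6 reached 2102, 1076, 343 and 1611 CPM, against 581, 603, 41.2 and 520.04 CPM in the most periportal one.

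**Figure D2:**
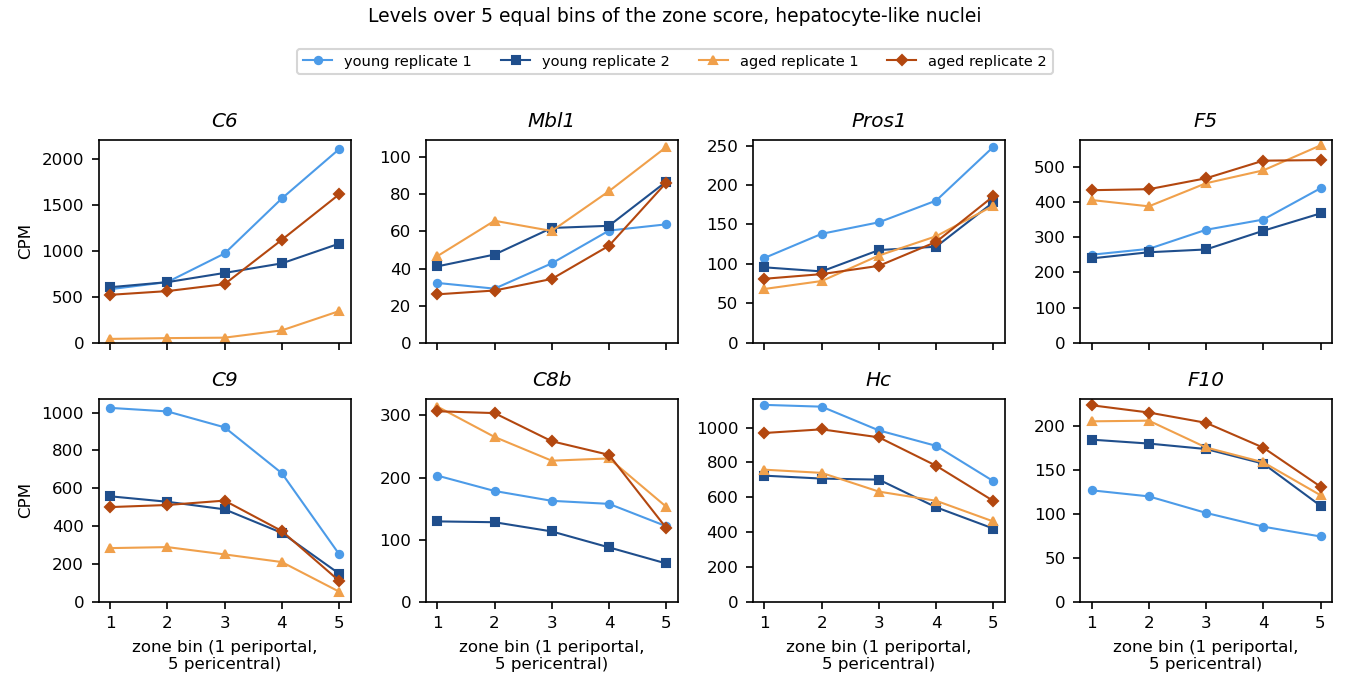
CPM (vertical axis) of 8 genes over 5 equal bins of the zone score within each library (horizontal axis, bin 1 periportal and bin 5 pericentral), with 1 line per library. C6, Mbl1, Pros1 and F5 end higher than they start in all 4 libraries, and C9, C8b, Hc and F10 end lower.

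All 4 convertase components were higher periportally. C2 and factor B (Cfb) are the proteases of the convertases, and they lie with C4b on chromosome 17 within 170 kilobases. C2 counted 195 and 104 CPM in the periportal and pericentral parts of young replicate 1, 135 and 89.6 in young replicate 2, 124 and 78.1 in aged replicate 1, and 155 and 70.5 in aged replicate 2. Its log2 difference of -0.83 ± 0.10 (adjusted p = 0.00016, edgeR) was larger than that of its neighbours Cfb (-0.61, -0.47, -0.55 and -0.65 by library, estimate -0.57 ± 0.07, adjusted p = 0.000231, edgeR) and C4b. C4b had -0.33, -0.29, -0.46 and -0.47, with -0.39 ± 0.07 (adjusted p = 0.00275, edgeR). Its near-identical copy C4a had -1.58 ± 0.15 (adjusted p = 3.44e-05, edgeR), and reads of the pair may have been split between them, so both values are uncertain. C3 had -0.56, -0.43, -0.75 and -0.61, with -0.59 ± 0.07 (adjusted p = 0.000271, edgeR). C3's difference shrank to -0.22 (adjusted p = 0.134, edgeR) without the clusters led by mitochondrial transcripts, and that of Cfb to -0.33.

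Of the 5 starters, only Mbl1, a mannose-binding lectin, passed, and on the pericentral side. It counted 34.4 and 66.9 CPM periportally and pericentrally in young replicate 1, 37.1 and 72.5 in young replicate 2, 54.4 and 105 in aged replicate 1, and 27.1 and 75.7 in aged replicate 2. Its estimate was 1.12 ± 0.11 (adjusted p = 4.25e-05, edgeR). Mbl2, the other mannose-binding lectin, had log2 ratios of 0.34, -0.11, -0.12 and 0.17, on both sides of 0, and an estimate of 0.05 ± 0.09 (adjusted p = 0.793, edgeR). Whether the 2 lectins differ from each other in this was not tested. The proteases Masp1, Masp2 and C1ra had estimates of -0.09, -0.19 and -0.06 and did not pass. Of the regulators, Cfi, the protease that cuts C3b and C4b, was higher periportally (-0.49, -0.47, -0.52 and -0.67, estimate -0.55 ± 0.07, adjusted p = 0.000348, edgeR), and Serping1, the C1 inhibitor, had 0.02 ± 0.08 (adjusted p = 0.93, edgeR).

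Among the 7 vitamin K dependent genes, 5 were higher periportally. F7, F10 and Proz, which encode factor VII (the partner of tissue factor), factor X (the protease that makes thrombin) and protein Z (a cofactor for inhibiting factor X), lie next to each other on chromosome 8 within 49.99 kilobases. F7 had log2 ratios of -0.40, -0.54, -0.72 and -0.88, with an estimate of -0.66 ± 0.09 (adjusted p = 0.000396, edgeR). F10 had -0.65, -0.54, -0.58 and -0.61, with -0.59 ± 0.07 (adjusted p = 0.000151, edgeR). Proz had -0.31, -0.27, -0.37 and -0.44, with -0.35 ± 0.07 (adjusted p = 0.00443, edgeR), so the 3 neighbours shared a side and not a size. F9 (factor IX, lost in haemophilia B) had -0.24, -0.17, -0.27 and -0.40, with -0.28 ± 0.07 (adjusted p = 0.0208, edgeR). F2 (prothrombin) had -0.20, -0.28, -0.17 and -0.27, with -0.23 ± 0.07 (adjusted p = 0.0339, edgeR), and its call was lost in 6 of the alternatives. Without the clusters led by mitochondrial transcripts, F2 differed by -0.06 (adjusted p = 0.654, edgeR).

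Pros1 ran the other way, and Proc did not pass. Pros1 encodes protein S, the cofactor with which activated protein C, the product of Proc, cuts factors V and VIII. Pros1 counted 125 and 225 CPM periportally and pericentrally in young replicate 1, 87.9 and 145 in young replicate 2, 74.0 and 172 in aged replicate 1, and 84.1 and 169.9 in aged replicate 2. The log2 difference was 0.96 ± 0.09 (adjusted p = 3.68e-05, edgeR), while that of Proc was 0.01 ± 0.07 (adjusted p = 0.963, edgeR). F5, the gene of factor V, the cofactor of factor X, was also higher pericentrally, with log2 ratios of 0.61, 0.52, 0.44 and 0.26 and an estimate of 0.45 ± 0.08 (adjusted p = 0.00193, edgeR). F5 thus lay on the side opposite to F10, the protease it serves.

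Of the contact and intrinsic pathway genes, 1 of 4 passed. Kng1 had log2 ratios of -0.15, -0.34, -0.36 and -0.49, with -0.34 ± 0.08 (adjusted p = 0.00902, edgeR). Reads of Kng1 and its close copy Kng2 may be split between them. F11 and Klkb1, the related proteases factor XI and prekallikrein, which lie together on chromosome 8, and F12 had estimates of 0.15, 0.00 and -0.03 and did not pass. F13b, a carrier subunit of the fibrin-stabilising factor XIII, had 0.13 ± 0.08 (adjusted p = 0.31, edgeR).

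Both thrombin inhibitors and both brakes on plasmin were higher periportally, and plasminogen was not called. Serpind1 (heparin cofactor II) had log2 ratios of -0.76, -0.51, -0.75 and -0.56, with -0.64 ± 0.08 (adjusted p = 0.000269, edgeR). Serpinc1 (antithrombin) had -0.54, -0.36, -0.48 and -0.34, with -0.43 ± 0.07 (adjusted p = 0.00146, edgeR). Serpinf2 (the plasmin inhibitor) had -0.21, -0.67, -0.67 and -0.76, with -0.61 ± 0.09 (adjusted p = 0.000817, edgeR). Cpb2, a carboxypeptidase that slows fibrinolysis, varied most of these between libraries, with -0.30, -0.88, -0.13 and -0.68 and an estimate of -0.49 ± 0.11 (adjusted p = 0.0113, edgeR). Plg had -0.14 ± 0.07 (adjusted p = 0.218, edgeR) and changed sign without the clusters led by mitochondrial transcripts (0.05).

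Other genes of these pathways, from a list of 50, were counted in the same fit. Of the 36 of them that were tested, 9 were higher periportally and 4 pericentrally. The 3 fibrinogen chains were among the periportal ones, at -0.63 ± 0.08 for Fga (adjusted p = 0.000263, edgeR), -0.70 ± 0.09 for Fgb (adjusted p = 0.000236) and -0.69 ± 0.10 for Fgg (adjusted p = 0.00051). Vtn (vitronectin, which blocks the pore) had -0.67 ± 0.07 (adjusted p = 8.83e-05, edgeR), and Lman1, a cargo receptor that carries factors V and VIII out of the endoplasmic reticulum, had -0.55 ± 0.09 (adjusted p = 0.00125). On the pericentral side were Cd59a, a membrane inhibitor of the pore, at 0.62 ± 0.13 (adjusted p = 0.00578, edgeR) and C4bp, a plasma regulator of C4b, at 0.34 ± 0.07 (adjusted p = 0.00663).

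The age comparison asked which of these genes differed between the liver of 2-month-old and 30-month-old mice. Each hepatocyte-like cluster drew most of its nuclei from 1 library, from 34 of 43 nuclei in cluster 21 to 1647 of 1650 in cluster 19, so the comparison sets libraries that lie in different clusters against each other. In hepatocyte-like nuclei none of the 36 passed an adjusted p of 0.05 in edgeR, where 0.0391% of 15363 genes did. At an unadjusted p under 0.05 there were 3 of the 36 (C1ra, C4b and Cpb2), which is 8.33% against 18.4% of all genes. DESeq2 called 1, C4b (adjusted p = 0.0466), and 821 among all genes. Both aged libraries lay below both young ones for 6 genes (16.7%) against 25.8% of all genes, and above them for 10 (27.8%) against 25.8%. The median log2 difference (aged minus young) was -0.10 for the 36 and -0.02 for all genes. It depended on single libraries: without young replicate 2 it was 0.12 for the 36 and 0.11 for all genes, without young replicate 1 it was 0.0011 and 0.0070, without aged replicate 1 it was -0.022 and -0.035, and without aged replicate 2 it was -0.035 and -0.040.

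**Figure D3:**
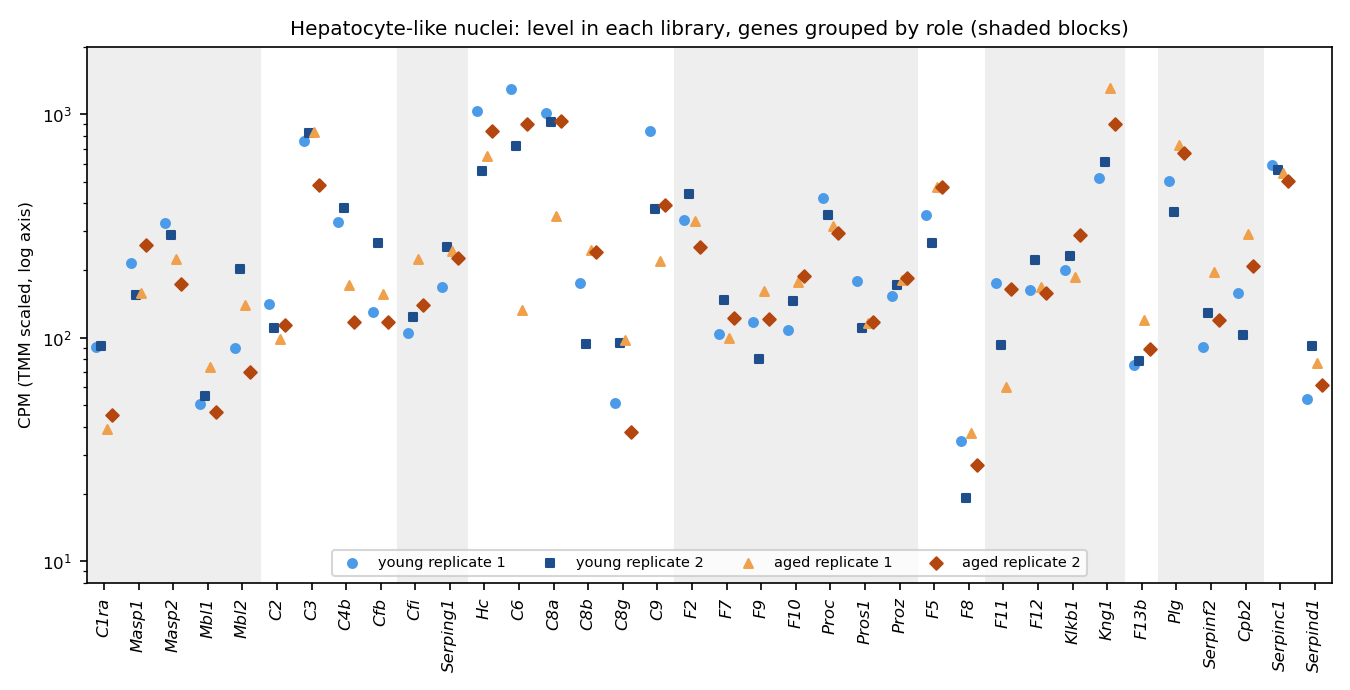
CPM (TMM scaled, log axis) of the 36 genes in hepatocyte-like nuclei, with 1 point per library and the genes grouped by role in alternately shaded blocks. C1ra and C4b are lower in both aged libraries, and C6, C8a and F11 are lower in aged replicate 1 than in the other 3 libraries.

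The smallest p-values belonged to 2 early complement genes that were lower in both aged libraries. C1ra counted 91.3 and 91.4 CPM at the young age against 39.0 and 45.04 in aged liver, a log2 difference of -1.12 ± 0.30 (adjusted p = 0.172, edgeR). C4b, whose product C1r and C1s activate, counted 329.6 and 380.2 CPM against 173 and 118, or -1.29 ± 0.36 (adjusted p = 0.175, edgeR). C1ra shares sequence with C1rb and C4b with C4a, so their counts are uncertain to that extent. Masp2, a further starter protease, counted 325 and 288 CPM against 224 and 174 (-0.62 ± 0.34, adjusted p = 0.365, edgeR). The groups did not overlap for any of the 3. Summed endothelial markers in these nuclei were also lower with age, at 250.2 and 204 CPM against 115 and 132, and summed macrophage markers were not, at 181 and 323 against 233 and 242. Their part in these differences was not tested.

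The 10 genes with higher values in both aged libraries, a share near that of all genes (25.8%), were 8 of the 19 coagulation and fibrinolysis genes and 2 of the 17 complement genes, and the difference between the families was not tested. Cpb2 counted 159 and 102 CPM at the young age against 293 and 209 (0.94 ± 0.37, adjusted p = 0.245, edgeR). Kng1 counted 519 and 610.3 against 1307 and 907 (0.97 ± 0.44, adjusted p = 0.287, edgeR), and Plg 501 and 364 against 730.4 and 669 (0.69 ± 0.40, adjusted p = 0.39, edgeR). In the complement system, C8b counted 176 and 93.8 against 246 and 241 (0.85 ± 0.39, adjusted p = 0.291, edgeR). Cfi counted 105 and 124 against 226 and 139 (0.67 ± 0.35, adjusted p = 0.351, edgeR). None of these passed the adjusted threshold, although no aged library overlapped a young one. F5, F9, F10, F13b and Proz had the same arrangement with smaller differences, between 0.16 and 0.62 on the log2 scale. F2, Proc and Serpinc1 lay lower in both aged libraries, between -0.41 and -0.14. The remaining 20 genes overlapped between the groups.

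The aged libraries were themselves unlike in 4 of the 36 genes by more than 2-fold, against 10.2% of all genes, and the young libraries in 3, against 19.1%. These genes were named after their values were seen. C6 counted 133 CPM in aged replicate 1 and 905 in aged replicate 2, with 1292 and 722 in the young libraries. C8a counted 349 in aged replicate 1 against 937, 1008 and 926, and F11 counted 60.1 against 166, 176 and 92.8. In each of these 3 genes aged replicate 1 was the lowest of the 4 libraries, the library in which the male-biased genes were also lowest. The fourth gene, C8g, went the other way within the aged group (97.6 and 38.0 CPM). The 12 acute phase genes summed to 1312, 1640, 2089 and 1931 CPM. In aged replicate 2, Crp (797 CPM) and Il1r1 (651 CPM) made up most of the sum. Single genes did not all follow it. Hp, for example, counted 79.3, 401, 373 and 218 CPM, and Saa1 9.40, 21.9, 25.4 and 5.64 CPM. The part of the acute phase genes in the differences was not tested.

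Whether age acted differently near the portal and the central vein was tested as an interaction over the same parts. The pericentral parts were not alike between the ages. They held 250 of 1833 nuclei with a zone score of exactly 0 in aged replicate 1 and 153 of 2759 in aged replicate 2. The young ones held 0, and the lowest scores by library were 0.10, 0.25, -0.045 and 0. The part of this in the zone and interaction results was not tested. None of the 36 passed the interaction test (0.0874% of 13735 genes did, edgeR), and 2 had an unadjusted p under 0.05 against 6.09% of all genes. DESeq2 called none of the 36 and 20 among all genes. Pros1 was tilted more toward the central vein in the aged libraries, with log2 ratios of 1.21 and 1.01 there against 0.84 and 0.72, a difference of 0.33 ± 0.15 (adjusted p = 0.818, edgeR). F7 had -0.40 and -0.54 against -0.72 and -0.88, a difference of -0.32 ± 0.15 (adjusted p = 0.82, edgeR). F8 had -0.76 and -0.02 against 0.20 and 0.09, a difference of 0.51 ± 0.25 (adjusted p = 0.847, edgeR). C6 had the smallest p (0.0447), but its libraries overlapped between the ages.

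Outside hepatocytes the first question was which genes exceed the level that hepatocyte RNA in other nuclei would give. The reference was the summed level of 12 hepatocyte transcripts such as Alb and Apob, which in endothelial-like nuclei stood at 76.2%, 78.1%, 50.1% and 84.9% of their hepatocyte level. It stood at 87.2%, 71.7%, 34.4% and 45.004% in stellate/fibroblast-like nuclei and at 87.7%, 83.5%, 52.8% and 71.9% in macrophage-like nuclei. A gene was counted as above it where its own ratio to hepatocytes was at least 2 times the reference ratio in each of the 4 libraries. By this rule 1 of the 36 was above it in endothelial-like nuclei (F8), none in stellate/fibroblast-like nuclei and none in macrophage-like nuclei. The rule was applied to these genes and the 50 other pathway genes only. How often genes in general meet it is therefore not known. The median gene followed the reference closely in endothelial-like nuclei, at 0.977, 1.01, 0.873 and 1.01 times it.

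**Figure D4:**
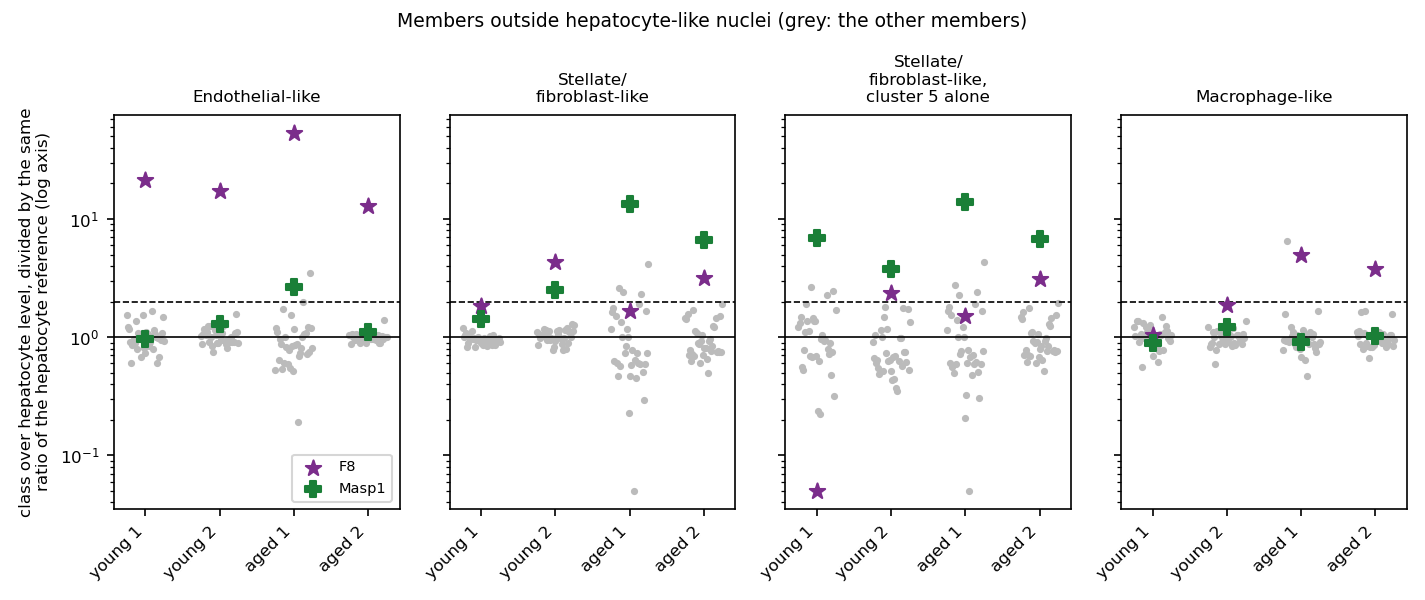
Level of each of the 36 genes in a class over its level in hepatocyte-like nuclei, divided by the same ratio of the 12 reference transcripts (log axis), by library (values under 0.05 are drawn at 0.05). The solid line marks 1 and the dashed line 2. F8 is above the dashed line in all 4 libraries in endothelial-like nuclei, and Masp1 in cluster 5.

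F8, the gene of factor VIII, the cofactor missing in haemophilia A, lies on chromosome X (75172715 to 75382615). It counted 523, 283, 981 and 297 CPM in endothelial-like nuclei (65, 350, 347 and 1071 UMIs) and 31.9, 21.1, 36.5 and 27.0 CPM in hepatocyte-like nuclei. Relative to the reference this was 21.5, 17.1, 53.7 and 12.97 times. F8 was thus the one gene of the 36 with an endothelial level far above its hepatocyte level in each library. Its hepatocyte level was 6.10%, 7.47%, 3.72% and 9.08% of the endothelial one. The 11 endothelial markers summed stood in hepatocyte-like nuclei at 4.99%, 6.13%, 0.851% and 4.13% of their endothelial level. How much of the F8 signal in hepatocyte-like nuclei has the same source was not tested.

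With age, F8 in endothelial-like nuclei differed by 0.76 ± 0.72 on the log2 scale (521 and 284 against 1031 and 322 CPM, TMM scaled, adjusted p = 0.992, edgeR). The aged mean rests on aged replicate 1, and without it the difference was -0.26. A further cluster of 745 nuclei (6, 12, 488 and 239 by library) stayed unnamed and is not in this class. All 11 endothelial markers were detected in it, but its markers were mixed. All 10 hepatocyte markers were detected too, and 3 classes other than hepatocytes had at least 3 markers each. Its median was 5405 UMIs per nucleus, against 1081 in the endothelial-like class. The unnamed cluster holds more nuclei of aged replicate 1 than the class does (292), and its part in the difference was not tested. No gene of the 36 passed in this class, where 0% of 9488 genes did, and 1 had an unadjusted p under 0.05, against 3.63% of all genes. Other genes of the pathways above the reference here were 6 of 50, among them Vwf (von Willebrand factor, the carrier of factor VIII), Tfpi (the inhibitor of tissue factor) and Stab2, a scavenger receptor that is also one of the markers of the class. The others were Cd55, Colec10 and Vsig4, which is a marker of the macrophage-like class.

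Masp1 met the rule in the most libraries in stellate/fibroblast-like nuclei, and F8 came closer by its lowest ratio (1.84, 4.31, 1.66 and 3.15 times the reference, 2 of 4 libraries). Masp1 encodes a lectin pathway protease that binds the collectins (chromosome 16, from 23449417). It counted 247, 307, 714 and 778 CPM there and 199, 171, 155 and 262 CPM in hepatocyte-like nuclei, or 1.43, 2.50, 13.4 and 6.61 times the reference, so 3 of 4 libraries met the rule. The class was made of 2 clusters that the libraries filled unequally: cluster 4 held 283, 1296, 3 and 45 nuclei and cluster 5 held 101, 190, 319 and 1199. In cluster 5 alone, an alternative chosen after seeing the data, Masp1 met the rule at 473, 405, 719 and 788 CPM, or 6.91, 3.77, 13.8 and 6.82 times the reference. Colec10 and Colec11, collectins that bind this protease, were above the reference in the whole class, among 7 of the 50 other pathway genes. The others were Fcna, Vwf, Tfpi, Fbln5 and Stab2. Vwf, Tfpi and Stab2 were also above it in endothelial-like nuclei, and Fcna in macrophage-like nuclei. The reference stands for hepatocyte RNA only, and the part of RNA from other classes was not tested.

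In stellate/fibroblast-like nuclei the age fit called 10 of the 36 genes lower, against 5.21% of 12062 genes, and 1 higher, against 8.42%. The lower ones were Masp2, C4b, Proc, C9, C1ra, Serpinc1, F2, Proz, F12 and C8a, all below the rule for being above the reference. C9, for example, counted 831 and 310.2 CPM at the young age against 42.9 and 128 (-2.67 ± 0.62, adjusted p = 0.031, edgeR). The reference itself fell from a mean of 79.5% to 39.7% of the hepatocyte level between the ages, and 10 of the 13 stellate markers were called higher, with none lower. The part of these shifts in the 10 calls was not tested. Masp1 was the 1 called higher, at 266 and 280.4 CPM against 738 and 804 (1.498 ± 0.33, adjusted p = 0.0254, edgeR). In cluster 5 alone none of the 36 was called, as for all 5528 genes tested there, and Masp1 differed by 0.89 (adjusted p = 0.418, edgeR). With the replicate number as a replicate block, 1 of the 36 was called and Masp1 had an adjusted p of 0.0995, without aged replicate 1 there were 3 calls, and without doublet removal none.

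In macrophage-like nuclei none of the 36 passed with age, as for 0% of 7744 genes (edgeR). At an unadjusted p under 0.05 there were 11 (30.6%) against 18% of all genes. DESeq2 called 1 of the 36 and 173 among all genes. Of the other pathway genes, 8 of 50 were above the reference there. Among them were C1qa, C1qb and C1qc, the 3 chains of C1q that start the classical pathway, and Cfp (properdin, which stabilises the alternative convertase). Vsig4, a receptor for C3b that is also one of the markers of the class, was another, beside Fcna, Tfpi and Plaur. C1qb counted 11.6, 59.7, 110 and 73.0 CPM in this class and 0.896, 3.60, 0.945 and 0.398 CPM in hepatocyte-like nuclei. C1qb was thus higher in macrophage-like nuclei in each library, from 2, 29, 50 and 37 UMIs, and C1ra and C4b, whose products act after C1q, did not meet the rule there.

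Genes that overlap another on the opposite strand include C2 (Zbtb12), C8a (Gm17662), C8g (Fbxw5), F5 (Gm16548), F8 (Fundc2), Hc (Gm13449), Masp1 (Rtp4), Masp2 (Tardbp), Plg (Slc22a3), Serpinc1 (Zbtb37) and Serpind1 (Pi4ka). The use of strand in the counting is not given in the sources used here, so their counts may hold reads of the partner.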

How the data were processed

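Nuclei were isolated from frozen liver and sequenced by droplet RNA sequencing, and the authors deposited raw UMI counts per gene and barcode for each library, for which the submitters' processing notes name Cell Ranger 7.1.0 and the mm10 build. The sources used here do not give the annotation release or how introns were handled. The filter on barcodes asked for 500 UMIs, 300 genes and no more than 5% mitochondrial UMIs, and the highest Scrublet scores were removed at 0.8% per 1000 barcodes (the automatic threshold marked 2 barcodes in all and was not used). Nuclei were clustered in scanpy 1.11.5 (2000 variable genes, 30 components, 20 neighbours, Leiden in igraph 0.11.9, resolution 1). A cluster was named from at least 3 detected markers with the suffix "-like", and no authors' annotation was used, so class names are rebuilt. Hepatocyte-like was given where at least 3 hepatocyte markers were detected and no other class had 3 markers raised over the remaining nuclei.

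Counts were summed per library and class, or per library and zone part, and tested on all genes with edgeR 4.0.16 in R 4.3.3 (TMM, filterByExpr, quasi-likelihood F test, Benjamini-Hochberg, threshold 0.05). A class needed 20 nuclei in each library. The zone score was the mean log level of 10 pericentral minus that of 10 periportal landmarks, which were left out of the tests. The SE is the size of the log2 difference divided by the square root of F. CPM in the age and zone results is TMM scaled, and elsewhere of the plain total. Positions and lengths came from GENCODE vM21, promoters from RefSeq. The tests were checked on data simulated with a fixed spread for all genes. A true log2 difference of 1 was recovered for 84% of changed genes in the zone test. In the age test this share was 40%, and in the zone by age test 3%. At a log2 difference of 2 the shares were 100%, 100% and 83%. These shares hold for the simulated spread only. In the data, the SE of the zone by age difference lay between 0.13 (C4b) and 0.36 (C6) for the genes followed here. A log2 difference of 1 is several times these values, so the shares do not measure what the tests could detect for these genes. Per-nucleus shares carry counting error only.

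All 36 genes are accounted for. Values by library were given for genes with an adjusted p under 0.05, then for up to 8 (age) or 3 (zone by age) with the smallest p and no overlap between groups. The genes, lists and rules were chosen with earlier results of these data known. Alternatives were DESeq2 1.42.0, other scaling, no filter on low counts, a replicate block, leaving out each library, stricter filters on nuclei, equal numbers of nuclei, no doublet removal, a split into 2 zone parts, and others chosen after seeing the data.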

Additional observations from a re-analysis of the deposited data

How the results depend on the processing

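Depth and the number of libraries limit these results: each age has 2 libraries, and young replicate 1 holds 64 endothelial-like and 37 macrophage-like nuclei. Among the 36 genes, the zone comparison called 24, and 19 to 24 under the alternatives run (21 to 23 when a young library and 19 to 21 when an aged one was left out). Every one of the 24 kept its direction in these, and the calls lost in at least 1 alternative were those of C3, Kng1, Cpb2, C8g, F9 and F2. Over all genes, that fit called 2977, and 1900 to 3522 under the alternatives.

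The age comparison in hepatocyte-like nuclei called 0 of the 36, with 1 in DESeq2 and 0 to 1 when a library was left out. In this fit the number called among all genes went from 6 to between 2 and 1561. The zone by age comparison called 0, with 1 without the filter on low counts and 0 to 1 when a library was left out (12 of all genes, 0 to 232 under the alternatives). In endothelial-like nuclei 0 were called, and 0 to 6 when a library was left out (0 of all genes, up to 565). There the log2 difference of F8 went from -0.26 (without aged replicate 1) to 1.37 (without aged replicate 2) when a library was left out, and was -0.066 without doublet removal. In stellate/fibroblast-like nuclei 11 were called, against 25 without the filter on low counts, 0 without doublet removal, 0 in cluster 5 alone, and 3 to 25 when a library was left out, lowest without aged replicate 1 and highest without young replicate 2, with 19 without young replicate 1 (1645 of all genes, 0 to 3649). In macrophage-like nuclei 0 were called, against 1 in DESeq2, 4 without the filter and 0 to 5 when a library was left out (0 of all genes, up to 700). The causes were not tested.

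The replicate numbers are shared between the ages in the labels. Replicate 1 of each age deviated from its group mean with a correlation of -0.21 over genes. With 2 libraries per age this is a single correlation, which cannot show whether the numbers pair the libraries. With a replicate block, 1 gene was called in stellate/fibroblast-like nuclei, and 0 in hepatocyte-, endothelial- and macrophage-like nuclei. With the numbers crossed, chosen after seeing the data, the calls were 23, 0, 0 and 4 in the same order. All these calls are among the complement and coagulation genes. The share of all genes called in the same block fits is not given here. Whether the calls are particular to these genes is therefore not known.

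Above the hepatocyte reference in stellate/fibroblast-like nuclei were 0 genes, against 2 without doublet removal and 1 in cluster 5 alone. The mean number of the 36 genes held by a hepatocyte-like nucleus was 7.72 at 1000 UMIs, 4.47 at 500 UMIs and 14.0 without thinning. The highest level per length was 87.1 times the lowest per exon length and 248 times per gene span.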
